A study of Homo sapiens with 6 samples.

Results

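The genes described here encode ascorbate transporters, members of the glucose transporter family, only some of which carry oxidized vitamin C, and an enzyme that reduces it. They are 10 genes chosen by name: the sodium-coupled ascorbate transporters SLC23A1 and SLC23A2, 7 genes of the facilitative glucose transporter family SLC2, and GSTO1, an enzyme that reduces dehydroascorbate. All 10 were found among the 60675 gene identifiers counted, and 9 had enough reads to be among the 15261 genes tested, with SLC23A1 left out by the filter on low counts. Transcript levels were measured by RNA-seq in MDA-MB-231, a human triple-negative breast cancer line grown in DMEM. One group of 3 wells received 100 μM vitamin C as sodium ascorbate for 3 days, with the medium renewed each day, and the other group of 3 control wells received none. All wells are of this single line and carry no genetic change made for the study, and it is not stated whether the sequenced wells came from 1 experiment or from repeats of it. The p-values therefore rest on the variation among these wells alone, and that variation may be technical.

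Vitamin C circulates mostly as ascorbate, which cells take up against its gradient through the SLC23 transporters using the sodium gradient. Its oxidized form, dehydroascorbate, resembles glucose and enters through some SLC2 proteins, also called GLUTs, in competition with glucose. Inside the cell dehydroascorbate is reduced back to ascorbate with electrons from glutathione or NADPH, by enzymes that include GSTO1. SLC2A1 is the most widespread glucose transporter of dividing and cancer cells, and both it and SLC2A3 are textbook targets of the hypoxia-inducible factors, whose breakdown depends on dioxygenases that use ascorbate.

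Reads counted in genes numbered 13434130 to 19553914 in the vitamin C libraries, against 17664345 to 22373591 in the control libraries. Unmapped read pairs made up 24.7% to 49.5% in the vitamin C libraries and 24.2% to 34.4% in the control libraries, and their part in the results was not tested. Levels are given as normalized CPM, which correct gene counts for sequencing depth with TMM factors. Differences are log2 fold changes, vitamin C relative to control, each with a standard error (SE). Adjusted p-values come from the quasi-likelihood test of edgeR with the Benjamini-Hochberg method over all 15261 genes. Of 7 mesenchymal markers of this line, 6 were tested and none passed in edgeR or DESeq2 (1 higher and 1 lower at an unadjusted p under 0.05), and SPARC had too few counts. The most familiar of them, VIM, was at 1256 ± 64.1 CPM in vitamin C wells and 1276 ± 45.3 CPM in control wells (SD, n = 3 each). ESR1, the oestrogen receptor, had 0 counts in every library. Of 9 luminal markers, 6 were tested, and EPCAM and KRT8 rose while none fell, which is 33.3% called beside 7.08% of all genes tested, with a median log2 fold change of 0.40 beside 0.02. The summed level of the luminal list was 569 to 663 CPM in vitamin C wells and 433 to 556 CPM in control wells, with ESR1 at 0 in both groups and FOXA1 at 0 in every vitamin C library, and its part in the results below was not tested. KRT8 did not pass the threshold without control 1 (edgeR adjusted p = 0.0887), control 2 (0.0869) or vitamin C 1 (0.0659). Among 7 markers of blood, endothelial, liver and fat cells only PECAM1 was tested, at 2.04 ± 0.141 CPM in vitamin C wells and 0.958 ± 0.339 CPM in control wells (SD, n = 3 each; edgeR adjusted p = 0.0439), and it did not pass in any of the 6 fits that leave out a library (edgeR adjusted p = 0.0557 to 0.136) or in DESeq2 (adjusted p = 0.0675). The summed level of these 7 markers was 1.96 to 2.30 CPM in vitamin C wells and 0.683 to 1.49 CPM in control wells, with ADIPOQ at 0 in every library, and its part in the results was not tested.

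Among the 9 tested genes, SLC2A1 fell, SLC2A8 rose and the other 7 did not pass the threshold. This is 2 of 9, where 7.08% of all genes tested were called, 3.48% lower and 3.6% higher. The median log2 fold change of the 9 was -0.01, beside 0.02 over all genes tested. SLC2A3 lay just outside the threshold in edgeR and inside it in DESeq2, so DESeq2 called 2 genes lower and 1 higher, where it called 10.7% of the 13472 genes to which it gave an adjusted p. Counting only genes that pass in both tools, as the study does, leaves SLC2A1 and SLC2A8, where 6.34% of genes tested passed in both. At an unadjusted p under 0.05, 2 of the 9 were higher and 2 were lower, where 27.4% of all genes reached that level. In 4 of the 9 genes the wells of the groups did not overlap, where this was so for 32.3% of all genes tested, so that a separation of wells is common across the transcriptome.

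**Figure D1:**
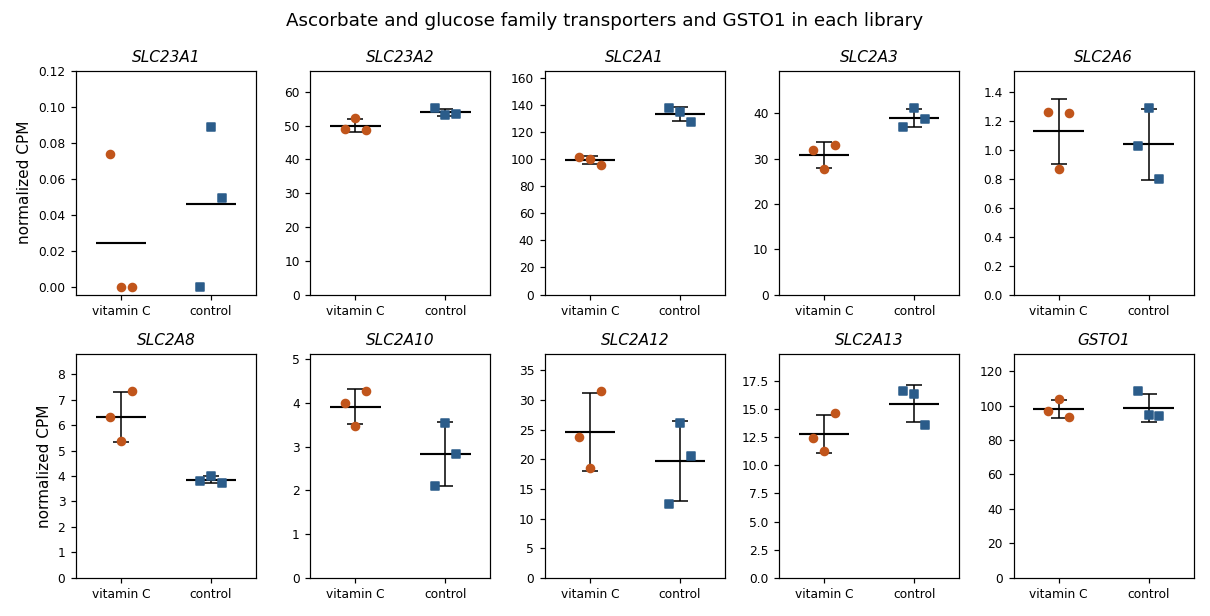
Normalized CPM of each of the 10 genes in the 6 libraries, with vitamin C wells as circles on the left and control wells as squares on the right of each panel. Lines mark the mean of each group and bars its SD (n = 3 each, not drawn for SLC23A1). The vitamin C wells lie below every control well for SLC2A1, SLC2A3 and SLC23A2 and above every control well for SLC2A8, and the groups overlap in the other panels.

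The ascorbate transporters proper were represented almost wholly by SLC23A2. The study's qRT-PCR primers for both are shown because they mark the stretches that tell SVCT1, the protein of SLC23A1, from SVCT2, the protein of SLC23A2. The 4 primers are given from their 5′ to 3′ ends, and no primer matched a transcript of the other gene in GENCODE 44. Of the annotated SLC23A1 transcripts the SVCT1 forward primer matched 4 of 7 and the reverse primer 3 of 7. Of the SLC23A2 transcripts the SVCT2 forward primer matched 3 of 5 and the reverse primer 2 of 5.
SVCT1 forward: tcatcctcttctcccagtacct
SVCT1 reverse: agagcagccacacggtcat
SVCT2 forward: tctttgtgcttggattttcgat
SVCT2 reverse: acgttcaacacttgatcgattc

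On GRCh38 the SVCT1 primers lie in coding sequence of exons 7 and 8 of SLC23A1 on chromosome 5 (139380041 to 139380062 and 139379801 to 139379819, minus strand). The SVCT2 primers lie in coding sequence of exons 15 and 16 of SLC23A2 on chromosome 20 (4862001 to 4862022 and 4859354 to 4859375, minus strand). Each pair therefore spans an intron. The qRT-PCR measurements made with them were not analysed here.

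SLC23A1, the ascorbate transporter of intestine and kidney epithelium, is encoded on chromosome 5 (139367196 to 139384553, minus strand). It had 1, 0 and 0 counts in vitamin C 1, 2 and 3 and 0, 2 and 1 counts in control 1, 2 and 3. A count of 0 allows up to 3 counts, which is 0.217 CPM in vitamin C 2, 0.151 CPM in vitamin C 3 and 0.171 CPM in control 1, so a difference between the groups was not detectable at this depth. These limits cover counting error only.

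SLC23A2, the ascorbate transporter of most other tissues, lies on chromosome 20 (4852356 to 5010293, minus strand). It was at 49.0, 52.2 and 48.8 CPM in vitamin C 1, 2 and 3 and at 55.2, 53.3 and 53.6 CPM in control 1, 2 and 3. Every vitamin C well was below every control well, as in 16.6% of all genes tested, but the gap of the means was small and the test did not pass (log2 fold change -0.11, SE 0.07, edgeR adjusted p = 0.351). The 95% interval of the difference ran from a fold of 0.827 to 1.04. Over all 6 libraries SLC23A2 had 5602 counts and SLC23A1 had 4, a ratio per kilobase of exon of 596 (95% interval 233 to 2188, exact Clopper-Pearson, counting error only).

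SLC2A1, encoding GLUT1, had the smallest p-value of the 9 and ranked 98 among all genes tested. Its gene lies on chromosome 1 (42925353 to 42958893, minus strand). It was at 102, 100.5 and 95.9 CPM in vitamin C 1, 2 and 3, against 138, 135 and 127 CPM in control 1, 2 and 3. No vitamin C well reached the lowest control well, and the gap between the nearest wells was wider than the range of either group. The log2 fold change was -0.42 (SE 0.07, edgeR adjusted p = 0.0108, DESeq2 adjusted p = 3.47e-05), and the 95% interval ran from a fold of 0.670 to 0.830. The estimate was much the same without control 2 (log2 fold change -0.42), where it no longer passed (edgeR adjusted p = 0.0572), and it passed with any other single library left out. Of its exon bases 497, or 7.51%, also lie in a long noncoding RNA on the opposite strand that was not among the genes counted.

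SLC2A3, encoding GLUT3, a glucose transporter of high affinity best known from neurons, lies on chromosome 12 (7919230 to 8019007, minus strand). It was at 31.8, 27.6 and 33.0 CPM in vitamin C 1, 2 and 3, against 37.0, 41.2 and 38.7 CPM in control 1, 2 and 3. The groups did not overlap, although vitamin C 3 and control 1 lay near each other. The log2 fold change was -0.34 (SE 0.09), with an edgeR adjusted p = 0.0509 and a DESeq2 adjusted p = 0.0272. It passed in edgeR without vitamin C 3 (adjusted p = 0.0251). With any other single library left out it did not pass (edgeR adjusted p = 0.0861 to 0.167), nor with the replicate number as a block (0.0834). Its near copy SLC2A14 held 6 counts over all libraries, and since reads with several positions were set aside in a summary line, the level of SLC2A3 is uncertain where the copies are alike.

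The ratio of SLC2A3 to SLC2A1 inside each library needs no normalization. It did not tell the changes of these related carriers apart, in a test that cannot pass 0.05 with 3 wells against 3. On the log2 scale of raw counts the ratio was -1.68, -1.86 and -1.54 in vitamin C 1, 2 and 3 and -1.90, -1.71 and -1.72 in control 1, 2 and 3. The values of the groups overlapped, with a difference of 0.08 (two-sided exact permutation test, p = 0.4, adjusted p = 0.4 over 3 such comparisons, n = 3 each). The ratio of SLC23A2 to SLC2A1 was higher in each vitamin C well, at -1.05, -0.95 and -0.97 in vitamin C 1, 2 and 3 against -1.32, -1.34 and -1.25 in control 1, 2 and 3. This difference of 0.31 exceeded the SD in vitamin C wells (0.05) and in control wells (0.05), with p = 0.1 in the two-sided exact permutation test (adjusted p = 0.15), where 0.1 is the smallest p that 3 wells against 3 allow. In plain ratios, SLC23A2 had 0.503 counts for each count of SLC2A1 in vitamin C wells and 0.406 in control wells. This ratio uses the same counts as the log2 fold changes of SLC2A1 (-0.42) and SLC23A2 (-0.11, not passing). It therefore mostly restates the lower level of SLC2A1 and is not separate evidence.

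SLC2A8, encoding GLUT8, an intracellular hexose transporter held in late endosomes and lysosomes by a dileucine signal, was the member that rose. Its gene lies on chromosome 9 (127397138 to 127408424, plus strand). It had 85, 74 and 146 counts in vitamin C 1, 2 and 3, against 67, 90 and 75 counts in control 1, 2 and 3. Scaled to library size this was 6.30, 5.36 and 7.33 CPM in vitamin C 1, 2 and 3 and 3.81, 3.995 and 3.73 CPM in control 1, 2 and 3. Every vitamin C well lay above every control well, as in 15.7% of all genes tested, and the control wells lay close together while the vitamin C wells were spread. The log2 fold change was 0.73 (SE 0.16, edgeR adjusted p = 0.0284, DESeq2 adjusted p = 0.0229), and the 95% interval ran from a fold of 1.30 to 2.11. SLC2A8 did not pass without control 1 (edgeR adjusted p = 0.1), control 2 (0.0861), control 3 (0.0627) or vitamin C 1 (0.0657), with log2 fold changes of 0.70 to 0.75 in these 4 fits.

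The promoters of the member that fell and the member that rose are printed because these were the genes called in opposite directions. Each window runs from 250 bases before the RefSeq start site to 50 bases after it on GRCh38.p14 and is read 5′ to 3′ on the gene's strand. Capitals mark matches, on either strand, to the hypoxia response core (ACGTG or GCGTG), the CCAAT box (CCAAT), the GC box (GGGCGG) and the TATA box (TATAAA), none of which overlap each other in these windows.
SLC2A1 (chr1:42958819-42959118, minus strand): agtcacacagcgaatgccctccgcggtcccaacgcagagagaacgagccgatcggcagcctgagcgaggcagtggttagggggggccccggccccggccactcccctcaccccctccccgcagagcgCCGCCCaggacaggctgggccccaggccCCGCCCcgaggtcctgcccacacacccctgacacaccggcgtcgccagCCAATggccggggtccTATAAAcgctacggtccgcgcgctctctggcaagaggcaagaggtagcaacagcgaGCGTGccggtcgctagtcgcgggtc
SLC2A8 (chr9:127396919-127397218, plus strand): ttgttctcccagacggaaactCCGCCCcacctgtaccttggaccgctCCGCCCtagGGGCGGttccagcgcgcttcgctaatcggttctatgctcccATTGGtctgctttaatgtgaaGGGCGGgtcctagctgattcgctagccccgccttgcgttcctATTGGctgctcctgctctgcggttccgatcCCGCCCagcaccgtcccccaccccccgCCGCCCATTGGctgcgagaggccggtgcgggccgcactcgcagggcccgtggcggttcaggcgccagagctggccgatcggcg

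The SLC2A1 window held 1 hypoxia response core, 26 bases after the start, 1 CCAAT box, 2 GC boxes and a TATA box beginning 31 bases before the start. The SLC2A8 window held no hypoxia response core and no TATA box but 3 CCAAT boxes and 6 GC boxes. Of 35116 promoter windows of this length, 48.4% held a hypoxia response core, 34.6% a CCAAT box, 45.0% a GC box and 11.5% a TATA box. RefSeq windows were found for 8 of the 10 genes, all except SLC23A2 and SLC2A3. A hypoxia response core was also in the windows of SLC2A6, SLC2A10 and SLC2A13, none of which passed the test, and was not in those of SLC23A1, SLC2A12 and GSTO1. A match of letters is a description and shows no binding.

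**Figure D2:**
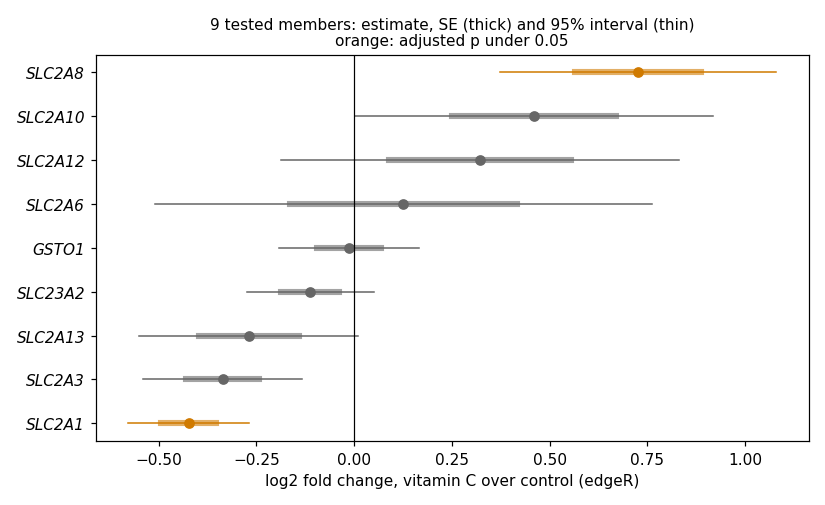
Estimates by edgeR of the log2 fold change (vitamin C relative to control, 3 wells each) in the 9 tested genes, sorted by size with the highest at the top. Thick bars are SE, thin bars are 95% intervals and orange shows the genes that passed the threshold. SLC2A8 at 0.73 and SLC2A1 at -0.42 are orange, and the interval of SLC2A3 also lies wholly below 0.

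The other SLC2 genes had lower levels or wider spreads. SLC2A10, encoding GLUT10, an endomembrane carrier of dehydroascorbate whose loss in humans causes arterial tortuosity syndrome, lies on chromosome 20 (46709649 to 46736347). It was at 4.003, 3.48 and 4.27 CPM in vitamin C 1, 2 and 3, against 2.11, 3.55 and 2.83 CPM in control 1, 2 and 3. Control 2 lay above vitamin C 2, and the difference did not pass (log2 fold change 0.46, SE 0.21, edgeR adjusted p = 0.181).

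SLC2A12, encoding GLUT12, a sugar transporter first found in the breast cancer line MCF-7, lies on chromosome 6 (133987581 to 134052624). It was at 23.8, 18.5 and 31.5 CPM in vitamin C 1, 2 and 3, against 12.5, 26.1 and 20.5 CPM in control 1, 2 and 3. With a CV of 26.4% in vitamin C wells and 34.5% in control wells it was the most variable of the 9 tested genes, although it had 2423 counts in all. The difference did not pass (log2 fold change 0.32, SE 0.23, edgeR adjusted p = 0.395), and the log2 fold change was 0.09 without control 1 or without vitamin C 3 and 0.57 without control 2. Its exons overlap those of TBPL1 on the opposite strand over 2852 bases, 51.2% of its exon length, and no source used here says whether reads were counted by strand. TBPL1 was at 16.8, 12.3 and 15.2 CPM in vitamin C 1, 2 and 3 and at 16.3, 15.9 and 13.4 CPM in control 1, 2 and 3.

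SLC2A13, encoding HMIT, a proton-coupled myo-inositol transporter and not a glucose carrier, lies on chromosome 12 (39755025 to 40106089). It was at 12.4, 11.3 and 14.6 CPM in vitamin C 1, 2 and 3, against 16.6, 16.3 and 13.6 CPM in control 1, 2 and 3. Vitamin C 3 lay above control 3, and the difference did not pass (log2 fold change -0.27, SE 0.13, edgeR adjusted p = 0.198). SLC2A6, encoding GLUT6, a lysosomal member, lies on chromosome 9 (133471094 to 133479127) and was at 1.26, 0.869 and 1.25 CPM in vitamin C 1, 2 and 3, against 1.02, 1.29 and 0.796 CPM in control 1, 2 and 3. With 117 counts over all libraries its 95% interval ran from a fold of 0.702 to 1.70. Changes within that range could not be told from none.

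GSTO1, glutathione S-transferase omega 1, which reduces dehydroascorbate with glutathione, lies on chromosome 10 (104235356 to 104267459). It was at 96.9, 104 and 93.2 CPM in vitamin C 1, 2 and 3, against 108, 94.2 and 93.7 CPM in control 1, 2 and 3. The groups overlapped over most of their range, and the log2 fold change was -0.01 (SE 0.08, edgeR adjusted p = 0.939). The 95% interval ran from a fold of 0.876 to 1.12, which is the narrow range of change that these wells allow for it.

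Levels of different genes can be compared only per length, here as normalized CPM per kilobase of merged exons. On that scale GSTO1 was highest, at 57.9 ± 3.09 in vitamin C wells and 58.4 ± 4.87 in control wells (SD, n = 3 each), and it lay above 96.4% of the 16138 protein-coding genes with any count. SLC2A1 followed at 15.02 ± 0.450 in vitamin C wells and 20.1 ± 0.807 in control wells, then SLC23A2 at 6.64 ± 0.249 and 7.18 ± 0.138, SLC2A3 at 4.25 ± 0.392 and 5.37 ± 0.287 and SLC2A12 at 4.42 ± 1.17 and 3.53 ± 1.22, with vitamin C wells given first in each pair. SLC2A13, SLC2A8, SLC2A10 and SLC2A6 lay lower, with means over all libraries of 1.41, 1.30, 0.697 and 0.306, and SLC23A1 was last at 0.0111. In control wells each gene lay above the next in every well, whereas in vitamin C wells SLC2A3 overlapped with SLC2A12 and SLC2A13 with SLC2A8. SLC23A2 thus stood below SLC2A1 and above SLC2A3 in both groups. The places of SLC2A12 and SLC2A3 in this order are uncertain. TBPL1 shares 51.2% of the exon length of SLC2A12, and reads that SLC2A3 has in common with SLC2A14 may be missing from its count.

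**Figure D3:**
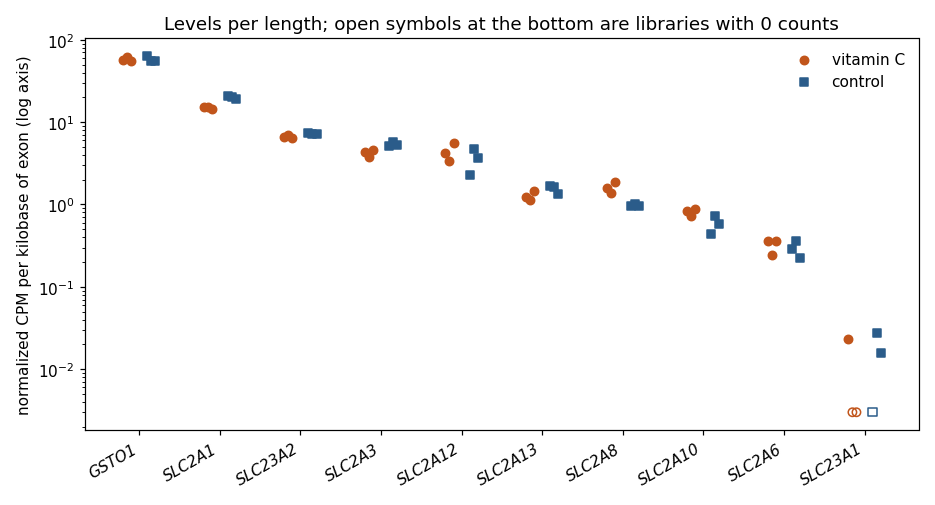
Normalized CPM per kilobase of exon for each gene in each library on a log axis, in order of the mean over all libraries, with vitamin C wells as circles and control wells as squares. Open symbols at the foot are libraries with 0 counts of SLC23A1. GSTO1 lies near 58 and SLC2A1 between 14.5 and 20.8, and the points of SLC23A1 are the lowest.

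SLC2A1 held the largest share of the SLC2 family's summed level per kilobase in all 6 libraries. By this measure its share was lower in every vitamin C library than in any control library. The test of this difference cannot pass the threshold with 3 wells against 3, so it could not decide whether the share changed. Of the 14 protein-coding SLC2 genes, the 7 listed here held nearly all of the family's level, SLC2A7 had 0 counts, and SLC2A2, SLC2A4, SLC2A5, SLC2A9, SLC2A11 and SLC2A14 had 1 to 20 counts each over all libraries. SLC2A4, the insulin-responsive carrier of muscle and fat, had 20 counts and SLC2A5, the fructose carrier, had 12, so neither could be compared. SLC2A1 held 54.7%, 58.8% and 49.4% of the summed level per kilobase in vitamin C 1, 2 and 3, against 65.9%, 58.9% and 61.2% in control 1, 2 and 3. The highest vitamin C well lay just below the lowest control well, and the difference of -7.70 percentage points had p = 0.1, the smallest possible (two-sided exact permutation test, adjusted p = 0.15, n = 3 each). By plain counts in place of counts per kilobase the difference was -6.31 percentage points and the groups overlapped (exact permutation test, p = 0.2). SLC2A8 held 5.78% ± 0.540 in vitamin C wells and 3.01% ± 0.0642 in control wells, and SLC2A3 held 15.3% ± 0.484 and 16.5% ± 0.415 in vitamin C and control wells (SD, n = 3 each). SLC2A12 held 15.8% ± 3.22 in vitamin C wells and 10.8% ± 3.31 in control wells (SD, n = 3 each). Its share in vitamin C 2 (12.9%) lay below that in control 2 (13.5%), so the groups overlapped. The exons it shares with TBPL1 make this share uncertain. Its part in the lower share of SLC2A1 was not tested. The family's summed level was 28.1, 25.8 and 29.4 CPM per kilobase in vitamin C 1, 2 and 3 and 31.6, 34.5 and 31.5 in control 1, 2 and 3, so that the groups did not overlap. Every vitamin C library lay below every control library in 16.6% of all genes tested, and SLC2A1 held the largest part of this sum. The difference in the sum was not tested.

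**Figure D4:**
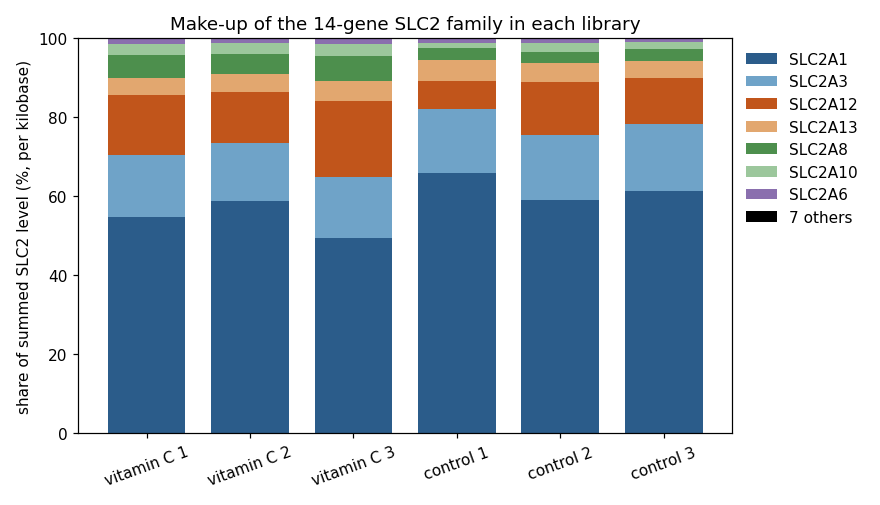
Share of each SLC2 gene in the family's summed level per kilobase, one bar per library, with vitamin C libraries on the left. SLC2A1, the lowest segment, takes 49.4% to 58.8% in vitamin C wells and 58.9% to 65.9% in control wells. The 7 genes shown in black together are too small to see.

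Of 17 further genes of ascorbate recycling 16 were tested, with CYB5R3 the single gene that rose and 15 that did not pass, a share of 6.25% beside 7.08% of all genes. CYB5R3, a NADH-dependent reductase of cytochrome b5, was at 113, 116 and 111 CPM in vitamin C 1, 2 and 3, against 77.4, 91.8 and 97.9 CPM in control 1, 2 and 3 (log2 fold change 0.35, SE 0.09, edgeR adjusted p = 0.0425). Its call was lost without vitamin C 1 (edgeR adjusted p = 0.105), vitamin C 2 (0.087), control 1 (0.134) or control 2 (0.108), and likewise with the replicate number as a block (0.0563) and after thinning to the shallowest library (0.0514). DESeq2 also called CYB561, a membrane cytochrome that passes electrons from ascorbate, which lay just outside in edgeR (log2 fold change 0.48, SE 0.13, edgeR adjusted p = 0.0526) and is named after its values were seen. Over the 16 genes the median was 0.05 on the log2 scale, beside 0.02 over all genes.

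Of 16 genes that act on the traffic or turnover of glucose transporters, all tested, the single call was ARRDC3, which fell, and 15 did not pass. This is 6.25% called beside 7.08% of all genes, with a median of -0.02 on the log2 scale beside 0.02. ARRDC3, an alpha-arrestin adaptor, was at 72.9, 87.1 and 72.7 CPM in vitamin C 1, 2 and 3, against 105, 103 and 92.9 CPM in control 1, 2 and 3 (log2 fold change -0.37, SE 0.09, edgeR adjusted p = 0.0351). It did not pass without control 1 (edgeR adjusted p = 0.129), control 2 (0.115) or vitamin C 1 (0.108). TXNIP, the alpha-arrestin best known for drawing GLUT1 from the cell surface, did not pass (log2 fold change -0.05, SE 0.09, edgeR adjusted p = 0.767) and is named after its values were seen.

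The sodium pump keeps the gradient on which SLC23 transport depends, and 5 of its 9 listed genes were tested. ATP1B1, its beta 1 subunit, was higher, at 591, 501 and 487 CPM in vitamin C 1, 2 and 3 against 298, 329 and 440 CPM in control 1, 2 and 3 (log2 fold change 0.57, SE 0.13, edgeR adjusted p = 0.0321), and none was lower. This is 1 of 5 genes, or 20% beside 7.08% of all genes, with a median of 0.05 on the log2 scale beside 0.02. It did not pass without control 1 (edgeR adjusted p = 0.128), control 2 (0.108) or vitamin C 1 (0.0934). Of 7 genes of the sodium glucose cotransporter family 2 were tested and none passed in edgeR or DESeq2, with 1 higher and none lower at an unadjusted p under 0.05. The most abundant of them was SLC5A3, a sodium myo-inositol transporter, at 193 ± 9.84 CPM in vitamin C wells and 198 ± 17.7 CPM in control wells (SD, n = 3 each). None of the 8 other SLC2 and SLC23 genes was tested, and the most abundant was SLC23A3, with 2, 5 and 9 counts in vitamin C 1, 2 and 3 and 5, 5 and 6 counts in control 1, 2 and 3.

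Hexokinases trap glucose once it has entered, and 2 of them changed in opposite directions. Of 9 hexokinase and glucose 6-phosphatase genes 5 were tested, with HK2 lower, HKDC1 higher and 3 that did not pass. This is 40% called beside 7.08% of all genes, with a median of -0.07 on the log2 scale beside 0.02. The study had already named HK2 among its downregulated genes, and the list was chosen with that known, so this share is only a description. HKDC1, a hexokinase-like gene, was at 57.3, 64.8 and 61.8 CPM in vitamin C 1, 2 and 3, against 39.9, 41.6 and 46.4 CPM in control 1, 2 and 3 (log2 fold change 0.52, SE 0.09, edgeR adjusted p = 0.0102). It did not pass without control 1 (edgeR adjusted p = 0.0501) or control 2 (0.058). HK2, the inducible hexokinase of muscle and tumours, was at 47.7, 61.9 and 35.8 CPM in vitamin C 1, 2 and 3, against 105, 86.7 and 89.9 CPM in control 1, 2 and 3 (log2 fold change -0.96, SE 0.16, edgeR adjusted p = 0.0102). It did not pass without control 1 (edgeR adjusted p = 0.0508). HK1, the most abundant gene of the list, was at 282 ± 12.8 CPM in vitamin C wells and 281 ± 22.3 CPM in control wells (SD, n = 3 each). HK1 did not pass (log2 fold change 0.005, SE 0.08, edgeR adjusted p = 0.974) and is named after its values were seen.

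The genes whose levels ran most like those of the main carriers were found by Pearson correlation of log2 CPM over the 6 libraries, among 9650 other protein-coding genes that averaged 100 counts or more. For SLC2A1 they were XPOT (r = 0.999), RPL10A (r = 0.996) and TRABD2A (r = 0.996), and for SLC23A2 they were CYREN (r = 0.999), ARHGEF7 (r = 0.995) and CD163L1 (r = 0.994). With so few libraries high values are common, and 604 genes had r over 0.9 with SLC2A1 and 277 with SLC23A2. All 6 libraries share the treatment contrast and the normalization, so these values are a description.

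**Figure D5:**
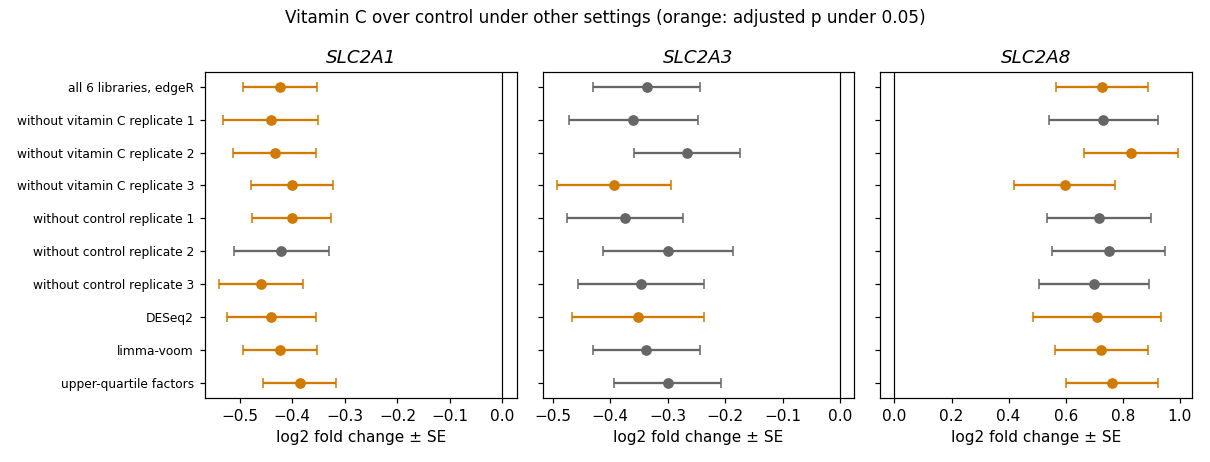
Estimates of the log2 fold change (vitamin C relative to control) of SLC2A1, SLC2A3 and SLC2A8 with all libraries, with each library left out, and with other tools or upper-quartile scaling. Bars show the SE, and points in orange passed the threshold. All points of SLC2A1 and SLC2A3 lie below 0 and all points of SLC2A8 above 0. SLC2A1 and SLC2A8, orange in edgeR with all libraries, lose this colour in 1 and in 4 of the 6 single omissions. SLC2A3, not orange in edgeR with all libraries, turns orange in 1 of the 6.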

How the data were processed

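Libraries were made from RNA depleted of ribosomal RNA. The submitters' processing notes name CASAVA 1.4, Trim Galore, STAR and the build hg38. The files deposited by the authors hold unnormalized counts for every Ensembl gene, 1 file a library. No source used here gives the version of STAR, the release of Ensembl or the strand option. The 4 summary lines of each file, which held 50.6% to 69.7% of read pairs, were left out, and a combined table with identical counts was not used. Wells of a group differed beyond sampling noise (chi-square divided by its degrees of freedom 4.54 to 21.6), so no file was treated as a repeat deposit of another library.

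Symbols, positions and merged exon lengths came from GENCODE 44 on GRCh38, which held 56558 of the 60675 identifiers. Promoters came from RefSeq. Counts were tested in R 4.3.3 with edgeR 4.0.16 (TMM, filterByExpr with a minimum count of 10, glmQLFit and glmQLFTest) and with DESeq2 1.42.0 (Wald test, on every gene with a count), at an adjusted p under 0.05. The biological coefficient of variation was 9.40%, and the code was tested on simulated data. Alternatives were other scaling factors, no filter, limma-voom (limma 3.58.1), edgeR's exact test, a replicate block, each library left out and thinning to the shallowest library.

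The genes and lists were chosen with earlier results of these data known. The text names the 10 genes, every passing gene of each list (the most abundant where none passed) and the 3 genes most like SLC2A1 and SLC23A2, and says where it goes beyond this.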

Additional observations from a re-analysis of the deposited data

How the results depend on the processing

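Of the 15 alternative fits, SLC23A2, SLC2A10, SLC2A12 and SLC2A13 kept their direction and did not pass in any. SLC2A1 was lower in all 15 (log2 fold change -0.46 to -0.39) and SLC2A8 higher in all 15 (0.60 to 0.83). SLC2A3 was lower in all 15 (-0.39 to -0.27) and passed in 5. With RLE factors (SLC2A3 edgeR adjusted p = 0.0481), with every gene that has a count (0.013), with DESeq2 (0.0272) and with edgeR's exact test (0.0203) the genes lower numbered 2 in place of 1. With single libraries left out, the genes lower numbered 0 to 2, the genes higher 0 to 1 and those called by both tools 0 to 2. The count of all genes called was 128 to 1900 with single libraries left out, 2245 with every gene that has a count and 1933 with edgeR's exact test, beside 1080. Values near 0 changed sign: with single libraries left out the log2 fold change of SLC2A6 was -0.0394 (without control 3) to 0.322 (without control 2) and that of GSTO1 -0.0564 (without vitamin C 2) to 0.0553 (without control 1). GSTO1 was also above 0 without vitamin C 3 (0.0205) and with upper-quartile factors (0.0253). With upper-quartile factors 64.6% of all calls were higher, and with DESeq2 40.6%, in place of 50.8%. The cause of these shifts was not tested.

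Same-numbered wells did not deviate together (r = -0.02, -0.06 and -0.05), beside -0.05 to 0.11 for wells of different numbers. These values gave no sign of pairing by number, but they cannot show how the wells were handled. With the replicate block, 731 genes were called, SLC2A1 and SLC2A8 still passed in edgeR, and 1 gene in place of 2 was called by both tools. The ratio and share differences kept their sign with each library left out and with the block, the ratio of SLC2A3 to SLC2A1 giving differences of 0.00484 to 0.167.

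Depth limits SLC23A1 and SLC2A6, and with 3 wells per group no permutation test can pass 0.05.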
